A study of Mus musculus with 6 samples.

Results

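Hepatic glucose and fructose entry, glycolysis and the sugar-sensing factor ChREBP were examined in the liver of KRAP-deficient mice through 8 genes: Slc2a2, Gckr, Khk, Pfkfb1, Pfkl, Pklr, Mlxipl and Mlx. All probesets annotated to exactly 1 of these symbols were taken, whatever their signal. This gave 12 probesets for 7 of the genes, out of 45037 on the array, and all 12 were bright enough to be tested. No probeset was named for Pfkfb1, a bifunctional enzyme that makes and removes fructose 2,6-bisphosphate, so it was not analysed here. Liver total RNA came from 3 KRAP-/- mice, in which part of the KRAP coding region is replaced by a neomycin resistance cassette in every cell, and from 3 wild-type littermates. All 6 mice were 32 weeks old, had been fed normal chow, and belonged to a line backcrossed to C57BL6/J. Each liver was hybridized to 1 Affymetrix array of the mouse genome, and KO1, KO2 and KO3 were paired with their littermates WT1, WT2 and WT3. The sex of these animals and the time since their last meal are not given in the sources used here.

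Glucose and fructose enter the hepatocyte mainly through the carrier GLUT2 (Slc2a2). Glucose is then trapped as its phosphate under the control of a nuclear regulatory protein (Gckr), and ketohexokinase (Khk) traps fructose in the same way. Phosphofructokinase (Pfkl) then commits the carbon of glucose to glycolysis. Pyruvate kinase (Pklr) makes pyruvate at its end, from which the liver makes fatty acids. ChREBP, encoded by Mlxipl, is a transcription factor activated by sugar metabolites. It binds DNA with its partner Mlx at the carbohydrate response element (ChoRE), a pair of E-box motifs spaced by 5 bases, and Pklr is its classical target.

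The promoter sequences of these genes are shown because the ChoRE, a pair of E-box motifs, is the element through which ChREBP and Mlx reach a gene. They were read from RefSeq on the GRCm38.p6 build, in windows from 250 bases before to 50 bases after each annotated start. All 8 genes had at least 1 window, 13 in all. Both strands were searched. The ChoRE was found in 1 of the 13, the downstream window of Pklr, and in 39 of 32851 promoters of the same length, or 0.119%. The 250 bases before this start of Pklr lie on chromosome 3, plus strand, with the ChoRE in capitals at -170 to -154:

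Pklr chr3:89136373-89136622: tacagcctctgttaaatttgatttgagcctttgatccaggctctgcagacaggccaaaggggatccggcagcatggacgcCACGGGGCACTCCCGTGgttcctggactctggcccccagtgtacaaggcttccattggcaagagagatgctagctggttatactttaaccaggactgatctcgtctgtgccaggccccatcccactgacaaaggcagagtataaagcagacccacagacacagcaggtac

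The complete E-box CACGTG, which reads the same on both strands, was found in windows of 3 members, Khk, Mlx and Mlxipl, and in 7.15% of all promoters. It is a single E-box, not the pair that makes a ChoRE, and it does not overlap with the ChoRE in any of these windows. The stretches below hold it in capitals with 20 bases on each side, all on the plus strand, at -71 to -66 of Khk, -40 to -35 of Mlx and -98 to -93 of the upstream start of Mlxipl:

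Khk chr5:30921468-30921513: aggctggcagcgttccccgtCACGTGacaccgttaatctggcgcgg

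Mlx chr11:101087230-101087275: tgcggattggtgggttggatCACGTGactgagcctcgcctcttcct

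Mlxipl chr5:135089772-135089817: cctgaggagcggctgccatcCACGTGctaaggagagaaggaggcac

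Another element, CCAAT, was present in at least 1 window of 6 members, Slc2a2, Pklr, Gckr, Mlxipl, Mlx and Pfkfb1, and in 37.4% of all promoters. None of the 3 elements was found in the window of Pfkl. A match describes the letters and is not evidence of binding.

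Signals below are the deposited intensities divided by the median of their array, so 1 stands for the middle probeset of the array. The level of one probeset cannot be set against that of another. Changes are log2 fold changes of KRAP-/- over wild-type, with the standard error and the adjusted p from limma over the 28531 probesets whose mean signal reached 0.5. A gene was called changed at an adjusted p under 0.05. The median change over all tested probesets was -0.04, and 0.01 with the values as deposited. Array medians were 19.1 to 23.4, and the median correlation of an array with the others was 0.948 to 0.952. The actin 3′ to 5′ ratio, a sign of RNA integrity, was 2.65 in WT1 and 2.01 to 2.32 in the other livers. The probeset of KRAP, now Itprid2, read at most 21.6 in KRAP-/- and at least 22.3 in wild-type liver, and its place relative to the deleted exons is not given, so it checks nothing. Summed hepatocyte markers read 3299 to 3766 in KRAP-/- and 3368 to 3462 in wild-type liver, with 0 of 6 called. The 5 Kupffer cell markers were all below 0 with Clec4f called lower, and their sum was 112 to 116 against 134 to 158. The lymphocyte markers summed to 6.58 to 10.8 against 16.0 to 34.4. That gap came from Ighm, the 1 of 4 called lower, since the other 3, summed after the values had been seen, gave 2.45 to 4.12 against 2.95 to 4.61. The adipocyte markers summed to 8.30 to 10.5 against 8.26 to 25.0, with WT1 highest, and the cholangiocyte markers to 3.82 to 5.43 against 5.16 to 6.35, with none called in either list. Of the 2 adipocyte genes tested, the dim Adipoq had -2.51 with no overlap (adjusted p = 0.25 from limma). Pancreas markers summed to 0.99 to 3.86 against 2.47 to 4.92, and skeletal muscle markers to 1.52 to 1.81 against 0.636 to 5.48. WT1 was highest in both, with none called. Sums of red cell and endothelial markers overlapped, with none called. The part of these other cells in the results below was not tested, and in whole liver fewer cells of a type and less RNA per cell cannot be told apart.

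Mlxipl (ChREBP) was the only one of the 7 measured members called changed, and it was lower in KRAP-/- liver. Over all tested probesets 0.978% were called lower and 0.431% higher by the same test. Its single probeset, 1419185_a_at, read 41.9, 39.6 and 39.9 in KO1, KO2 and KO3, and 78.5, 68.1 and 57.5 in WT1, WT2 and WT3. The KRAP-/- livers lay close together, and all of them lay below the lowest wild-type liver. The means were 40.5 ± 1.27 and 68.0 ± 10.5 (SD, n = 3 each), a fall of 40.0% on the log2 fit. The log2 fold change was -0.74, standard error 0.10, 95% interval -0.96 to -0.52, adjusted p = 0.0085 from limma. The ratio to the littermate was 0.534, 0.582 and 0.695 in pairs 1, 2 and 3, so the fall was smallest in pair 3. The direction was the same under all 13 alternatives, with changes of -0.84 to -0.65. The call was kept in 11 of them, and lost when dim probesets were also tested (adjusted p = 0.383 from limma) or without the intensity trend (adjusted p = 0.422 from limma), where no probeset of the array passed.

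**Figure D1:**
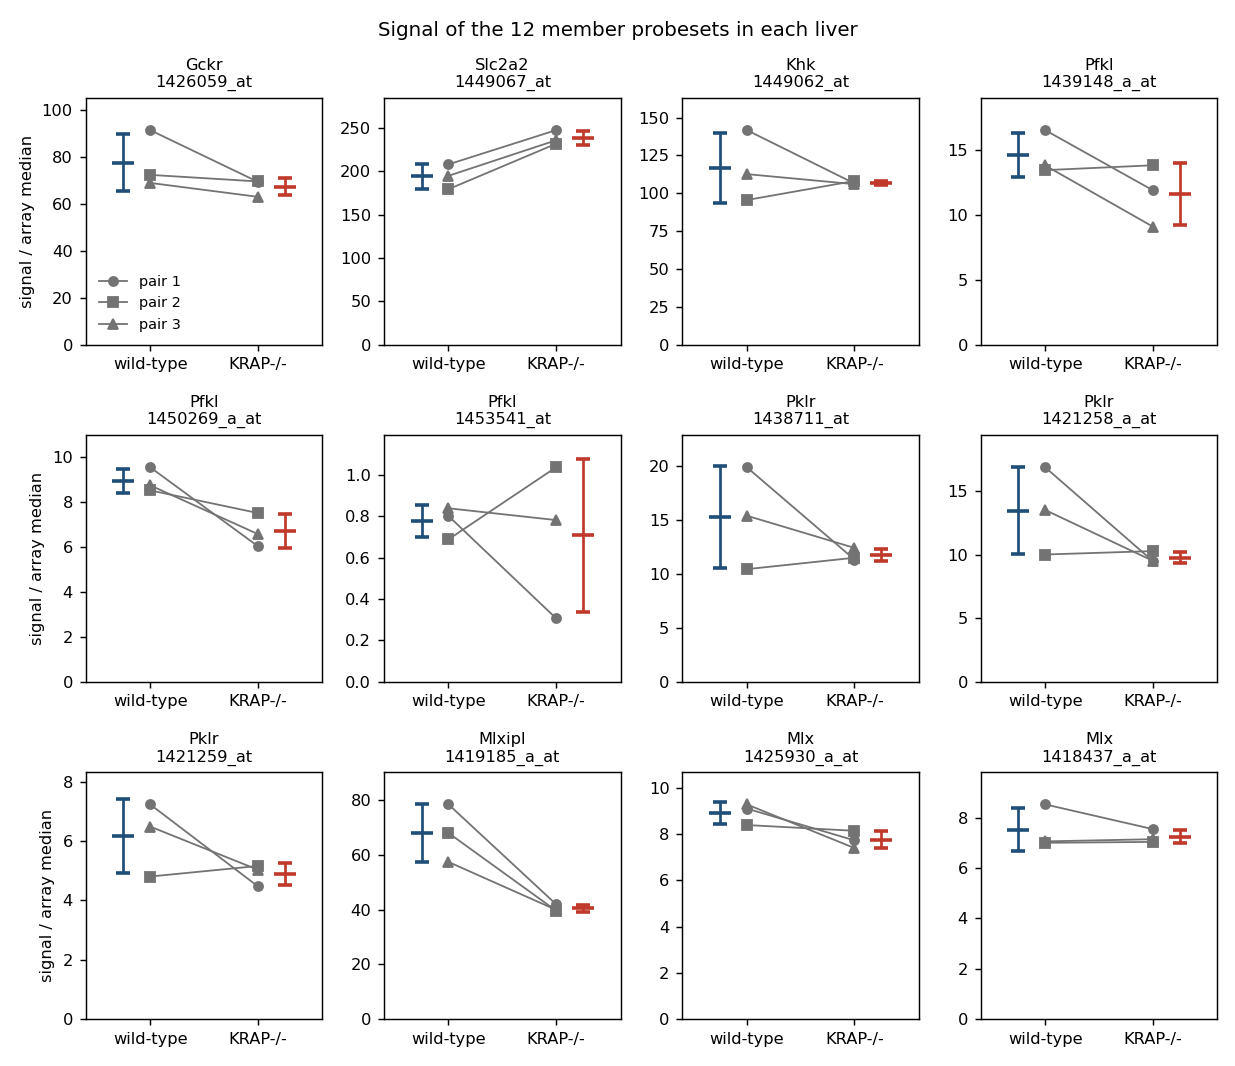
Signal divided by the array median (vertical axes, linear, from 0) of the 12 probesets, by genotype. Each point is a mouse joined by a line to its littermate, with the group mean and its SD (n = 3) as coloured bars. Mlxipl spans 57.5 to 78.5 in the wild-type and 39.6 to 41.9 in the KRAP-/- group, and Slc2a2 is the only probeset that is higher in all 3 KRAP-/- livers.

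Mlx, the obligate partner of ChREBP on DNA, was measured by 2 probesets and was called at neither. The brighter, 1425930_a_at, read 7.73, 8.15 and 7.40 in the KRAP-/- livers and 9.11, 8.40 and 9.30 in the wild-type livers. The groups did not overlap there, but the gap between KO2 and WT2 was small. The log2 fold change was -0.20, standard error 0.12, 95% interval -0.48 to 0.08, adjusted p = 0.48 from limma. The dimmer, 1418437_a_at, read 7.55, 7.04 and 7.15 against 8.53, 7.00 and 7.06. Only WT1 stood above the other livers, and the change was -0.05, adjusted p = 0.89 from limma.

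Sugar entry was described by Slc2a2, which went against the direction of the other members. GLUT2 carries glucose both into and out of the hepatocyte, and fructose as well. Its single probeset, 1449067_at, read 248, 232 and 236 in KO1, KO2 and KO3, and 208, 179 and 195 in WT1, WT2 and WT3. Every KRAP-/- liver was above every wild-type liver, and the ratio to the littermate was 1.19, 1.29 and 1.21, an even difference over the pairs. The means were 238 ± 8.16 and 194 ± 14.3 (SD, n = 3 each). The log2 fold change was 0.30, standard error 0.08, 95% interval 0.13 to 0.47, or 23.0% higher on the log2 fit. With an adjusted p of 0.11 from limma it did not pass, and it passed under none of the 13 alternatives (adjusted p = 0.079 to 0.481 from limma, with changes of 0.26 to 0.35).

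Gckr, the inhibitory regulator of glucose phosphorylation, was measured by 1426059_at, which read 69.3, 69.4 and 62.9 in the KRAP-/- livers and 91.3, 72.2 and 68.8 in the wild-type livers. It was lower in each pair, but the groups overlapped, and WT1 stood above the other 5 livers. The log2 fold change was -0.19, standard error 0.09, 95% interval -0.40 to 0.01, adjusted p = 0.37 from limma.

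Khk, which phosphorylates fructose, was measured by 1449062_at, which read 107, 108 and 106 in KO1, KO2 and KO3 and 142, 95.6 and 113 in WT1, WT2 and WT3. The KRAP-/- livers were nearly equal, whereas the wild-type livers lay on both sides of them. The ratios to the littermate were 0.751, 1.13 and 0.941, so the pairs had no common direction. The log2 fold change was -0.11, standard error 0.11, 95% interval -0.36 to 0.14, adjusted p = 0.70 from limma. It was 0.05 without pair 1.

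In glycolysis, Pfkl, the liver subunit of phosphofructokinase, was below 0 at all 3 probesets and called at none. The brightest, 1439148_a_at, read 11.9, 13.8 and 9.08 in the KRAP-/- and 16.5, 13.4 and 13.8 in the wild-type livers, with KO2 level with the wild-type. Its log2 fold change was -0.35, standard error 0.14, adjusted p = 0.29 from limma. The middle one, 1450269_a_at, read 6.04, 7.52 and 6.58 against 9.56, 8.53 and 8.75. The groups did not overlap there, and the change was -0.42, standard error 0.14, 95% interval -0.73 to -0.11, adjusted p = 0.20 from limma. The dimmest, 1453541_at, read 0.306 to 1.04 in KRAP-/- and 0.688 to 0.839 in wild-type liver, with KO2 the only liver above the array median, and its change of -0.30, standard error 0.53, was the least precise of the 12.

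Pklr, the pyruvate kinase of liver and red cells, was below 0 at its 3 probesets, and they gave the same order of the livers in the wild-type group. The brightest, 1438711_at, read 11.3, 11.5 and 12.4 in KO1, KO2 and KO3 and 19.9, 10.4 and 15.4 in WT1, WT2 and WT3. WT1 and WT3 were above all KRAP-/- livers, while WT2 was below them. The ratios to the littermate were 0.570, 1.10 and 0.806, and the log2 fold change was -0.33, standard error 0.16, 95% interval -0.70 to 0.04, adjusted p = 0.40 from limma. The second, 1421258_a_at, read 9.49, 10.3 and 9.52 against 16.9, 10.02 and 13.5, and the third, 1421259_at, 4.47, 5.16 and 5.03 against 7.24, 4.80 and 6.49. In both, KO2 and WT2 were nearly level. Their changes were -0.43 (adjusted p = 0.26 from limma) and -0.32 (adjusted p = 0.43 from limma). Without pair 2 the second of these probesets was -0.67, adjusted p = 0.029 from limma, the only other call among the 12 in any alternative. Without pair 1 the 3 changes shrank to -0.086, -0.23 and -0.13 in the same order, none of them called.

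**Figure D2:**
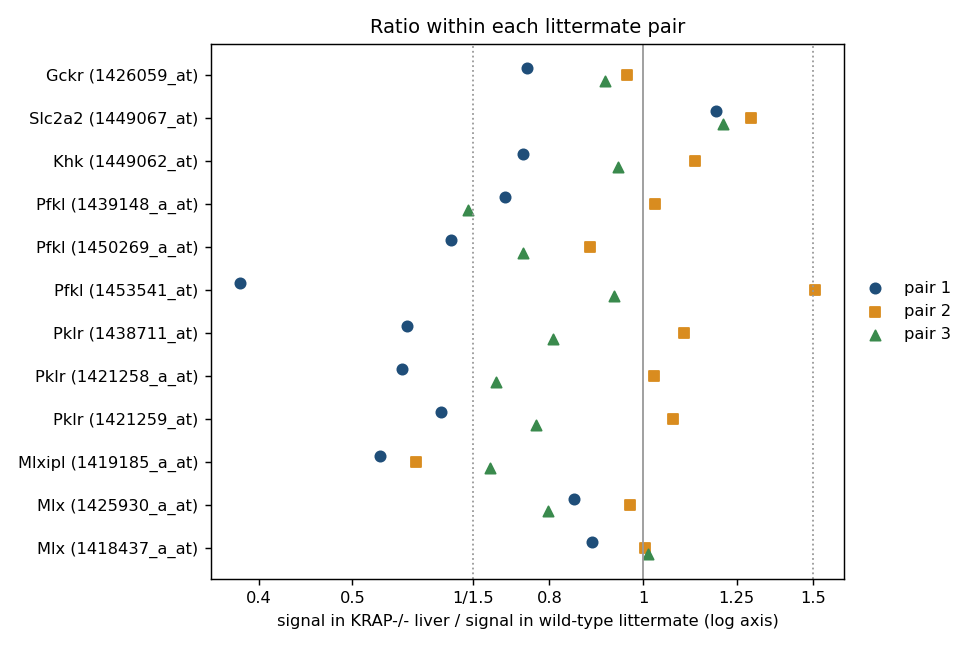
Ratio of the signal in each KRAP-/- liver to that in its wild-type littermate (horizontal log axis) for the 12 probesets, with the 3 pairs as separate symbols and dotted lines at 1.5-fold in either direction. Mlxipl lies at 0.534, 0.582 and 0.695 and Slc2a2 at 1.19 to 1.29, while the Pklr probesets lie at 1.03 to 1.10 in pair 2 and below 1 in pairs 1 and 3.

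Across the 12 probesets, 11 were below 0 and 1 above, where 55.2% of all tested probesets were below 0. Several of the 12 read the same gene in the same livers, so counts over them are not counts of independent members. An unadjusted p under 0.05 from limma was found for 5 of the 12 and for 14.9% of all. The median at the brightest probeset of the 7 genes was -0.20, against -0.04 for all tested probesets. The KRAP-/- signal was below the littermate in all 3 pairs at 4 probesets, against 22.4% of all, and above it in all 3 at 1, against 15.3% of all. The groups did not overlap at 4 probesets. They were lower at 3 of the 12 (Mlxipl, the middle Pfkl and the brighter Mlx), where 12.3% of all tested probesets were, and higher at 1 (Slc2a2), where 7.8% were. By a limit of 1.5-fold in each of the 3 pairs, taken from the study's methods and applied here to all probesets with no filter on dim signals, 0 of the 12 passed, compared with 5.18% of the 45037 probesets. It need not select the same probesets as the study did. Mlxipl missed it in pair 3 alone.

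**Figure D3:**
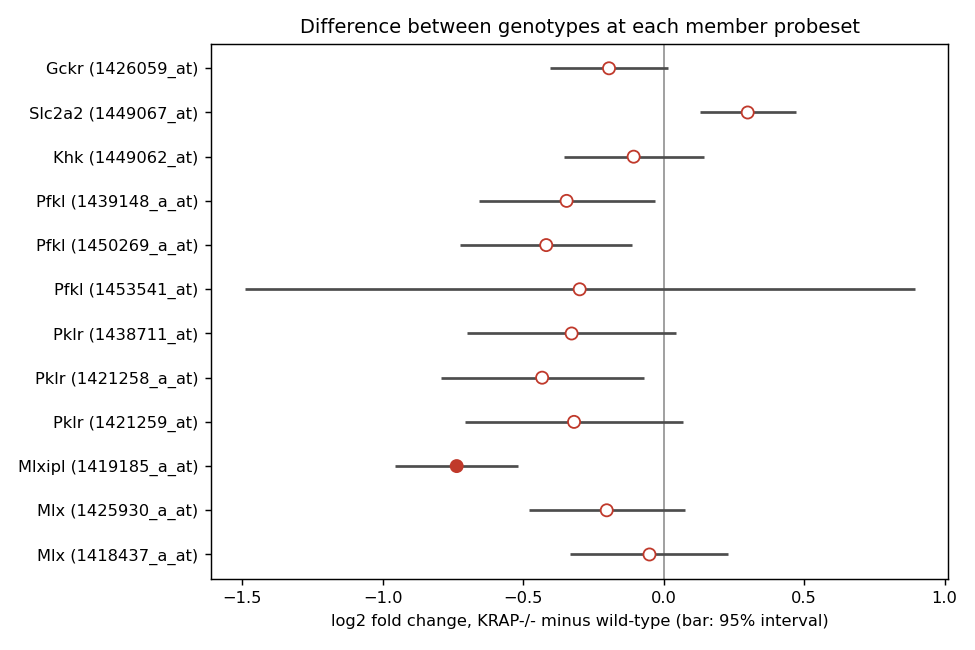
Change of the 12 probesets as log2 of KRAP-/- over wild-type (horizontal axis), with bars for the 95% interval from limma and a filled point where the adjusted p was under 0.05. The Mlxipl interval runs from -0.96 to -0.52 and that of Slc2a2 from 0.13 to 0.47. Those of Gckr, Khk, both Mlx probesets, the brightest and dimmest Pklr probesets and the dimmest Pfkl probeset include 0.

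WT1 held the highest signal at 9 of the 12 probesets, where it held the highest at 24.2% of all tested probesets, the largest share of the 6 arrays. Its beta-actin 3′ to 5′ ratio was also the highest of the 6, as given above, and its part in these values was not tested. Without pair 1 the change of Mlxipl was -0.65 and that of Gckr -0.093, the Pklr changes shrank as given above, and those of Khk, the dimmest Pfkl and the dimmer Mlx probeset turned above 0. The coefficient of variation was lower in the KRAP-/- livers at 9 of the 12 probesets, or 75%, and at 53.6% of all tested probesets. At the 3 Pklr probesets it was 4.61% to 7.47% in KRAP-/- and 20.2% to 31.0% in wild-type liver. With 3 livers a group these spreads are themselves uncertain, and probesets of the same gene are not independent.

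The genes that followed Mlxipl most closely over the 6 arrays, among 11045 genes with a mean signal of at least 1, were Gamt (Pearson r = 0.997), which makes creatine, Gstp3 (r = 0.996), a glutathione transferase, and Cyb5r3 (r = 0.994), a cytochrome b5 reductase. In all, 188 genes had an r of at least 0.95 with it. For Pklr they were Uck1 (r = 0.988), a uridine-cytidine kinase, Psmd5 (r = 0.985), a proteasome assembly chaperone, and Stard8 (r = 0.984), and 33 genes had an r of at least 0.95. These are descriptions over 6 livers in which a difference between the groups alone gives a high r.

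Around these genes, the lists of glycolysis, sugar transport, fructose use, the pentose phosphate pathway and pyruvate entry had no call at the brightest probeset of a gene. Of 14 other genes of glycolysis, 0 were called, 11 were below 0 and the median was -0.09. Aldoc, a brain-type aldolase, read 5.68 to 6.91 in KRAP-/- and 9.15 to 11.6 in wild-type liver, with no overlap, and its change was -0.67, adjusted p = 0.053 from limma. It passed in 6 of 13 alternatives, with adjusted p = 0.013 from limma without pair 2. The muscle-type pyruvate kinase Pkm had -0.38, adjusted p = 0.43 from limma. Among the other bifunctional kinases that set fructose 2,6-bisphosphate, 0 of 3 were called, with -0.47 for Pfkfb4 and 0.37 for Pfkfb2 (adjusted p = 0.56 and 0.45 from limma).

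Of 7 other hexose transporters tested, 0 were called. Their largest values were -1.35 for Slc2a10, a dim probeset (adjusted p = 0.47 from limma), and -0.73 for the insulin-sensitive carrier Slc2a4 (adjusted p = 0.27 from limma). Of 4 other genes of fructose and polyol use 0 were called, with 0.53 for the fructose carrier Slc2a5 and -0.07 for the glycerate kinase Glyctk (adjusted p = 0.46 and 0.78 from limma).

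Of 7 genes of the pentose phosphate pathway, which makes NADPH, 0 were called at the brightest probeset and 6 were below 0. The brightest probeset of Pgd, 6-phosphogluconate dehydrogenase, had -0.56 (adjusted p = 0.058 from limma). Its ID ends in _x_at, which marks probes that may bind other transcripts. Only the dimmest of the 4 Pgd probesets has no such ID. It was called lower with -0.79 (adjusted p = 0.017 from limma). Its signal was 6.46 to 7.15 in KRAP-/- and 10.8 to 13.7 in wild-type liver, with no overlap. Without pair 3 the brightest passed too, with -0.70 (adjusted p = 0.0092 from limma). Rpia, the ribose phosphate isomerase, had -0.47 (adjusted p = 0.17 from limma). Of 12 genes of pyruvate entry into mitochondria 0 were called and the median was 0.02, with -0.80 for the pyruvate dehydrogenase kinase Pdk4 and -0.35 for Pdk2 (adjusted p = 0.26 and 0.19 from limma). Pdk4 read 15.3 in WT3 and 2.89 to 5.82 in the other livers. It passed without pair 2, with -1.16 (adjusted p = 0.012 from limma), but was -0.25 without pair 3 (adjusted p = 0.60 from limma).

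Known targets of ChREBP were described in 2 lists, chosen with earlier results of these data known, and the difference between the lists was not tested. By the same test 0.978% of all tested probesets were called lower and 0.431% higher. Of 9 sugar-responsive targets outside lipogenesis, 5 were above 0 and 4 below, with a median of 0.25. The largest change was 1.03 for Rgs16, which was not called (adjusted p = 0.26 from limma). By the test 0 fell and 1 rose, Arrdc4, an arrestin-domain protein. It read 7.53, 6.38 and 7.61 in KO1, KO2 and KO3 and 3.53, 4.23 and 3.92 in WT1, WT2 and WT3. All KRAP-/- livers were well above all wild-type livers, in contrast to Mlxipl, where they were below. The change of Arrdc4 was 0.88, standard error 0.15, adjusted p = 0.028 from limma, and adjusted p = 0.069 without pair 1. Its dimmer probeset had -0.44, adjusted p = 0.26 from limma, so the 2 probesets differed in sign. Txnip, a related arrestin and a classical sugar-induced gene that was picked here after its value was seen, read 19.0 to 29.5 in KRAP-/- and 16.4 to 25.4 in wild-type liver. Its change was 0.25, adjusted p = 0.45 from limma.

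The second list holds 9 lipogenic targets that ChREBP shares with SREBP-1c. The study had already reported Scd1, Acacb and Fasn of these as lower in KRAP-/- liver, and also Acaca, by northern and western blot. Acaca, another acetyl-CoA carboxylase, had -0.62 here and was not called (adjusted p = 0.073 from limma). Over all tested probesets 0.978% were called lower and 0.431% higher. Of the 9 lipogenic targets, 6 fell, 0 rose and the median was -1.05. Among them Fasn, the fatty acid synthase, had -1.49 (adjusted p = 8.6e-04 from limma), Acly, which makes cytosolic acetyl-CoA, -1.17 (adjusted p = 0.0013), Acacb, an acetyl-CoA carboxylase, -1.92 (adjusted p = 0.0029) and Thrsp, a lipogenic nuclear protein, -1.50 (adjusted p = 0.0086, and 0.060 without the pair as block). Pklr, with its ChoRE, moved less than these, by -0.33 at its brightest probeset, but this difference between genes was not tested. Of 9 genes of the network of Max and Mlx 0 were called, with -0.51 for the repressor Mnt and -0.37 for Max (adjusted p = 0.18 and 0.69 from limma). Over the 70 genes of these lists 6 were called lower and 1 higher, all of them targets of ChREBP by the lists. Of all listed genes, with the members and the cell markers included, 116 of 144 had a promoter window, and the ChoRE was found in 1, Pklr. Sites outside these windows and looser forms of the element were not searched, so a gene without a match may still have a ChoRE.

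**Figure D4:**
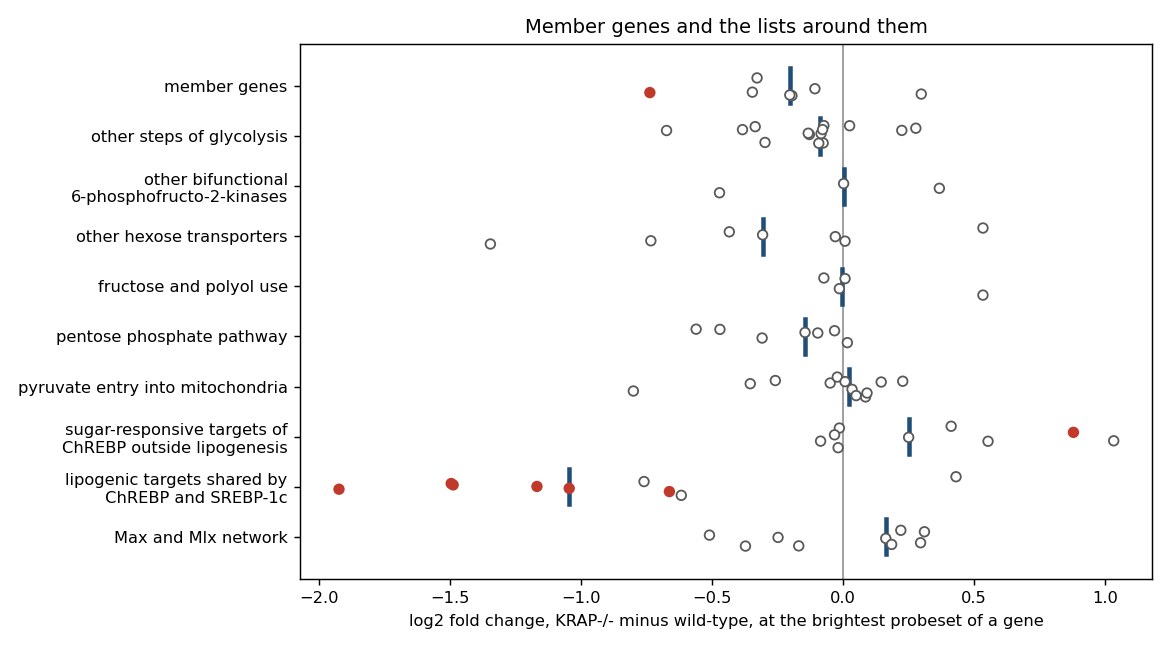
Change as log2 of KRAP-/- over wild-type (horizontal axis) of the 7 member genes and of the genes of 9 lists around them, each gene a point at its brightest probeset and each bar the median of its list. Filled points passed limma at an adjusted p under 0.05, namely Mlxipl at -0.74 among the members, Arrdc4 at 0.88 among the sugar-responsive targets and 6 of the 9 lipogenic targets.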

How the data were processed

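The authors hybridized liver RNA to Affymetrix arrays and took the signal with GCOS. The values they deposited are linear intensities without log transformation or scaling. Here each intensity was scaled to its array median, 64 control probesets were left out, and values were floored at 0.1 and taken as log2. Of these, 28531 probesets had a mean of 0.5 or more and entered the fit by limma 3.58.1 under R 4.3.3. The model held the littermate pair as block, an intensity trend and Benjamini-Hochberg adjustment at 0.05. The littermate pairing comes from the study's methods and was matched to the arrays by the numbers in their labels, which do not name littermates. Deviations from the group means correlated between littermates with an r of 0.0429, 0.00954 and -0.0124. Gene symbols came from the platform annotation, which gives 1 symbol to 34945 probesets, several to 932 and none to 9160. IDs ending in _x_at or _s_at mark probes that may bind other transcripts, and none of the 12 probesets has such an ID.

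The members and gene lists were chosen with earlier results of these data known. Named by rule were all members, and per list up to 4 called genes or else the 2 with the largest change. Genes named outside this rule include Txnip, Rgs16, Scd1, Acaca and the cell markers. Genes are given at the brightest tested probeset. Promoters were read from RefSeq windows of GRCm38.p6. No array equalled another. The number of arrays limits the precision. The p-values rest on the spread of the differences within the 3 littermate pairs, which limma moderates with the variances of all tested probesets. Alternatives were leaving out each pair, other scalings, no block, no trend, other fold limits, no cross-hybridizing probesets, other limits for dim probesets, other floors and a pseudocount. Figures used matplotlib 3.10.9 under Python 3.11.15, and tables pandas 2.3.3.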

Additional observations from a re-analysis of the deposited data

How the results depend on the processing

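The number of members called lower was 1 under 11 of 13 alternatives. In those 11 the pathway lists had 6 to 9 genes called lower, with 9 without pair 2, against 6 in the fit used. The counts of members and of list genes, lower and higher, were 0 when all 45037 probesets were tested or without the intensity trend. There 0 probesets of the whole array passed in limma, although 4551 and 3089 had an unadjusted p under 0.05, against 4244 in the fit used. Leaving out 1 pair gave 1 to 2 member probesets lower, with 2 without pair 2, and 1 to 3 list genes higher, with 3 without pair 3. With a limit of 1.2-fold in all 3 pairs 1 member probeset passed, in place of 0. Leaving out a pair gave -0.25 to 0.046 for Khk, -0.74 to 0.24 for the dimmest Pfkl probeset, -0.085 to 0.012 for the dimmer Mlx probeset and -0.59 to 0.017 for Max, each reversed at the upper value, without pair 3 for Max and without pair 1 for the others. Quantile normalization gave 0.017 for that Mlx probeset. The cause was not tested. Over all member probesets and alternatives, 148 values kept their direction and side of the threshold, 1 newly passed, 2 no longer passed and 4 reversed. Without the replicate block 1 member was called lower and Thrsp was not called (adjusted p = 0.060 from limma). Signal over background is not part of the values used here, which limits what dim probesets such as the dimmest of Pfkl and that of Slc2a10 can show.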
